A study of Homo sapiens with 34 samples.

Results

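NALM-6 is a human cell line of precursor B-cell acute lymphoblastic leukemia (B-ALL), labelled with the fusion ETV6-PDGFRB. Here the RNA-seq of NALM-6 cells treated with 1 µM palbociclib and collected after 3 days was compared with that of NALM-6 cells given the solvent DMSO for the same time. These are 6 of the 34 samples of the series, 3 for each group, chosen by their labels for cell line and treatment. For each of 15614 genes the deposited table gives a single level per group, and 11618 genes with a mean of the 2 levels of at least 10 were compared as a log2 ratio, palbociclib over DMSO, while 3996 with lower levels were set aside. Because each group is represented by a single value, the spread between the samples and the depth of each library could not be read from the levels, no test was made, the p-values in the authors' table were not used, and a gene is said to have risen or fallen where its ratio was at least 2-fold. The levels are on the scale of read counts and not divided by gene length. For comparison, the same drug, dose and time were used in BV-173 cells, labelled BCR-ABL, and in RS4;11 cells, labelled MLL-AF4, each with its own DMSO control. NALM-6 cells transduced with an shRNA against *CCND3* and sorted on day 4 were set against cells carrying a scrambled shRNA from the same day. Each of these comparison groups held 3 samples, except the *CCND3* shRNA group of NALM-6 and the DMSO group of BV-173, which held 2 each. Palbociclib and DMSO cells were neither transduced nor sorted. All lines were grown in the same medium, RPMI 1640 with serum. Each line is a single established line, and the labels speak of duplicates or triplicates without saying whether they were separate cultures.

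Palbociclib blocks the kinases CDK4 and CDK6, which with a D-type cyclin phosphorylate the retinoblastoma protein RB1 in G1 phase. Unphosphorylated RB1 holds back the E2F factors that switch on the genes of DNA replication. Genes of mitosis are controlled later in the cycle by the MuvB complex, which binds a promoter element called CHR together with MYBL2 and FOXM1 in cycling cells and with the pocket proteins in arrested cells. In precursor B cells, exit from the cycle is also the point at which light chain rearrangement and the next steps of maturation begin. CCND3, the main D-type cyclin of these cells, was the subject of the study, which asked how inhibiting the kinases differs from losing the cyclin.

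Some of the genes that fell hold short words of these elements before the start site. In the 250 bases before the start, an E2F word was in 8.91% and a CHR word in 18.5% of their 752 promoters. Promoters are those of RefSeq on GRCh38.p14, read 5′ to 3′ on the strand of the gene. The stretches below were picked by hand from genes of the cell cycle that fell and hold such a word near the start, with 1 gene within 2-fold in each set for contrast, and each lies entirely upstream of the start. In the first set, capitals mark an E2F word, one of TTTGGCGC, TTTCCCGC, TTTGCCGC and TTTCGCGC on either strand. *CDT1* loads the replicative helicase (chr16:88803743-88803772, plus strand), *PCNA* is the sliding clamp of the fork (chr20:5126663-5126692, minus strand), *E2F1* (chr20:33686387-33686416, minus strand) and *E2F2* (chr1:23531257-23531286, minus strand) are E2F factors themselves, and *UHRF1* reads hemimethylated DNA (chr19:4909471-4909500, plus strand). *EZH1*, a Polycomb enzyme that stayed within 2-fold, carries such a word too (chr17:42745137-42745166, minus strand).
CDT1: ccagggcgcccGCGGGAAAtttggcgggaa
PCNA: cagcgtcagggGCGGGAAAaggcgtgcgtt
E2F1: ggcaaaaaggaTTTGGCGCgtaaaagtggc
E2F2: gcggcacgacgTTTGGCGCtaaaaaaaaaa
UHRF1: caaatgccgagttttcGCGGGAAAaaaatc
EZH1: gcggggttttgGCGGCAAAtgacagtagtg

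In the second set, capitals mark a CHR word, TTTGAA or TTCGAA on either strand. *CCNB2* (chr15:59105105-59105134, plus strand), a mitotic cyclin, and *PLK1* (chr16:23678848-23678877, plus strand), a mitotic kinase, hold it 29 bases before the start. *CENPA* (chr2:26786026-26786055, plus strand) is the histone of the centromere, *CDC20* (chr1:43358904-43358933, plus strand) activates the anaphase-promoting complex, *NCAPG* (chr4:17810932-17810961, plus strand) is a condensin subunit, and *MKI67* (chr10:128126435-128126464, minus strand) codes for the proliferation marker Ki-67. *FZR1*, the other activator of the anaphase-promoting complex and within 2-fold here, holds the word at 226 bases from its start (chr19:3506073-3506102, plus strand). The genes that fell were picked for a near word, so these stretches do not compare distances. *CDK1*, which fell (-3.20), holds its word 161 bases before the start and is not shown.
CCNB2: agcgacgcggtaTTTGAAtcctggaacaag
PLK1: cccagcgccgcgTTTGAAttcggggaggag
CENPA: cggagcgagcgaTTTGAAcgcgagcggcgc
CDC20: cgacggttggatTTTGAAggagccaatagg
NCAPG: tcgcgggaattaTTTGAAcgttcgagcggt
MKI67: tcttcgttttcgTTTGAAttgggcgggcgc
FZR1: ttcctgtattgaTTTGAAtcgcgggagacg

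Over all genes tested, 2031 differed by at least 2-fold (17.5%), of which 1091 were higher (9.39%) and 940 lower (8.09%) with palbociclib. The median log2 ratio over all genes was -0.02, but it differed by level. It was 0.60 at mean levels from 10 to 30, 0.34 from 30 to 100, -0.02 from 100 to 1000 and -0.10 from 1000 up. The share past 2-fold was 42.9%, 34.8%, 15.3% and 11.4% in the same order. From 10 to 30, 291 genes rose and 66 fell, and from 30 to 100, 267 rose and 88 fell. Whether these rises are a shift of low levels as a whole was not tested. The genes that rose and those that fell were of different kinds of level. The genes that fell were the more abundant, with a median over genes of the mean of the 2 levels of 705, against 94.5 for the genes that rose. At 4-fold the balance turned to 251 genes higher and 301 lower, and at 8-fold to 57 higher and 114 lower. Among genes with a mean level of at least 1000, 149 rose and 361 fell. Both columns were scaled by the authors, and their sums differ, at 19456475 for DMSO and 17810468 for palbociclib. Setting them to the same total raises every log2 ratio by 0.13, and 1366 genes are then higher and 760 lower, so the higher genes make 64.3% of the calls in place of 53.7%. In bulk RNA, fewer cells in a phase of the cycle and less RNA per cell cannot be told apart.

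**Figure D1:**
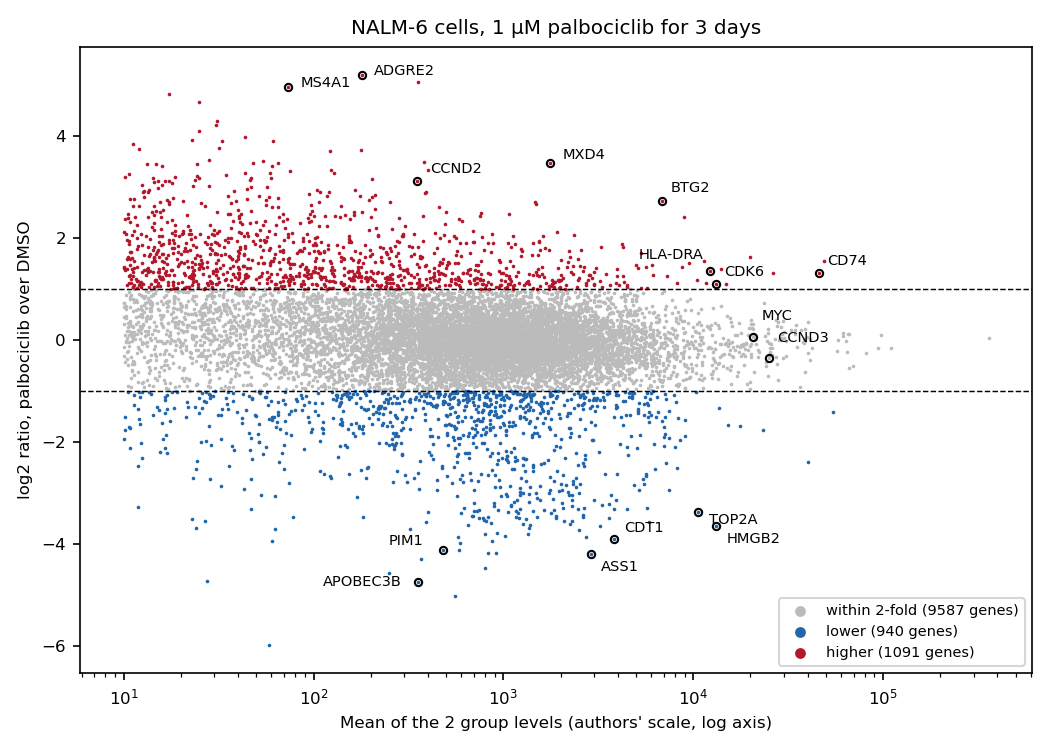
Each point is a gene of NALM-6 cells, by the mean of its DMSO and palbociclib levels (x axis, log scale, the authors' units) and its log2 ratio (y axis); dashed lines mark 2-fold, and 16 genes are labelled. The 940 genes that fell include abundant ones such as *TOP2A* and *HMGB2*, while most of the 1091 genes that rose lie at lower levels.

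NALM-6 cells had a further control, the cells with scrambled shRNA, whose levels were normalised in another table and come from transduced, sorted cells. For the genes that fell with palbociclib its level was near that of DMSO, with a median log2 ratio of scrambled over DMSO of -0.15, and in 67 of the 940 (7.13%) it lay past the midpoint, on the log scale, between DMSO and palbociclib. For the genes that rose the median was 0.64, and in 413 of the 1091 (37.9%) the scrambled level lay past that midpoint, on the palbociclib side. Over all 11618 genes the median was 0.05. Both ratios share the DMSO level, so a low DMSO value raises both at once. The part of the DMSO control in the rises was not tested, and the scrambled level is given below for the genes of the lists and of the extremes named here where it lay past that midpoint. This comparison was added after the values were seen.

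The cells had the markers of a B-lymphoid precursor under both conditions. All 15 markers of that class had a mean level of at least 100, and their summed level went from 139623 in DMSO to 163496 with palbociclib, with 2 of them higher by 2-fold, among them *CD79A*. Of 15 T or NK cell markers, 7 were not listed and 5 reached a mean level of 10. Their sum was 865 in DMSO and 876 with palbociclib, most of it the transcription factor *GATA3* (642 and 631), while *KLRD1* rose (1.07), *NKG7* fell (-1.18) and the T-cell receptor subunit *CD3E* was at 0.601 and 1.30. Of 15 myeloid markers 4 reached 10, with a sum of 300.4 and 358. The surface marker *CD33* was at 177 and 156, and the granule enzyme *MPO* rose from 13.8 to 68.4. Of 15 erythroid or megakaryocytic markers 2 reached 10 (sum 112 and 78.9), and of 15 fibroblast or epithelial markers 4 did (sum 9011 and 9684), most of that sum being *PDGFRA*. The entry matched to the epithelial marker *CDH1* (1623 and 1219) is that of *FZR1*, for which CDH1 is a synonym. The count of 4 and the sum therefore include *FZR1*, and no level of the epithelial gene was read. *PDGFRB*, the kinase gene of the labelled fusion, was listed at 85.1 in DMSO and 74.0 with palbociclib, while its relative *PDGFRA* was listed at 7331 and 8416.

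The targets of the drug and their cyclins did not move together. *CCND3* (chr6:41934933-42050035) was by far the most abundant D-type cyclin, and its level with palbociclib, 21959.7, was 78.0% of the 28149 in DMSO (log2 ratio -0.36). *CCND2* (chr12:4273762-4305353), far lower than *CCND3* in DMSO, rose 8.68-fold, from 72.9 to 632. In the scrambled control it was at 264. Even with palbociclib, per kilobase of gene length, *CCND2* stood at 96.8 against 10482 for *CCND3*. *CDK6*, the kinase partner that predominates in blood cells, rose from 8431 to 17989 (1.09 on the log2 scale), whereas *CDK4* was at 4494 and 3182 (-0.50). *CCND1* was close to the floor of the table, at 1.23 and 2.37. In RS4;11 and BV-173 cells the log2 ratio of *CCND2* was 1.75 and 1.40, that of *CDK6* 0.33 and 0.23, and that of *CCND3* -0.29 and -0.40. *CCND2* in RS4;11 remained under a level of 10 in both groups.

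Downstream of the D-type cyclins, the activators of S phase fell. The kinase *CDK2* went from 4645 to 1195 (-1.96), its cyclin *CCNE2* from 808 to 142 (-2.50), the phosphatase *CDC25A* from 2284 to 335 (-2.77) and the CDK subunit *CKS1B* from 3741 to 380.1 (-3.30). *CCNE1*, at 342 and 301, stayed within 2-fold, unlike *CCNE2*. The CDK inhibitors did not rise. Of the 5 in the table, 3 fell and 2 stayed within 2-fold. *CDKN1A* (p21) went from 7393 to 2877 (-1.36), *CDKN1B* (p27) from 2231 to 913 (-1.29) and *CDKN2C* (p18) from 1574 to 308 (-2.35). In RS4;11 none of the 4 tested inhibitors passed 2-fold, with *CDKN1A* at -0.46, *CDKN1B* at 0.28 and *CDKN2C* at -0.16. In BV-173 *CDKN2C* fell (-2.45), whereas *CDKN1A* was at -0.15.

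The E2F family did not move as one. The activators *E2F1* (from 4519.5 to 819, log2 ratio -2.46) and *E2F2* (from 6546 to 794, -3.04) fell, and so did the atypical repressors *E2F7* (-3.58) and *E2F8* (-3.63), which are themselves made in S phase. The dimer partner *TFDP2* rose from 2629.7 to 7316 (1.48), and *E2F5*, which pairs with the pocket proteins, rose by 1.23. The other 4 members stayed within 2-fold. Of the pocket proteins, *RB1* (4761 and 4633) and *RBL2* (3031 and 3022) stayed within 2-fold, while *RBL1*, an E2F target, fell from 1026 to 288. The factors that drive the mitotic genes in G2 phase fell further. *MYBL2* went from 9442 to 1428 (-2.73) and *FOXM1* from 4844 to 437 (-3.47).

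Nearly all genes of DNA replication fell. Of 49 genes of origin licensing and the replication fork, 44 fell, none rose, and the median log2 ratio was -2.16, beside 8.09% of all genes tested that fell and a median of -0.02. The lowest was *CDT1*, which went from 7154 to 481, a 14.9-fold fall. The 6 subunits of the MCM helicase fell by less, from -1.46 for *MCM2* to -2.42 for *MCM7*. The clamp *PCNA* went from 9709.8 to 1578, and the helicase activator *CDC45* from 2244 to 282. The exception with the highest value was *ORC4*, an origin recognition subunit, at 1230.2 and 1804 (0.55). Its partner *ORC1*, whose protein comes and goes with the cycle, fell (log2 ratio -3.04).

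The supply of deoxynucleotides followed in part. Of 22 genes of deoxynucleotide and folate synthesis, 12 fell, with a median of -1.22. The lowest was thymidylate synthase, *TYMS* (from 9118 to 1184, -2.94). Both subunits of ribonucleotide reductase fell, *RRM1* to a log2 ratio of -2.63 and *RRM2* to -2.26, whereas the subunit used outside S phase, *RRM2B*, was at 603 and 798. The serine and folate enzymes *SHMT2* (-1.90) and *MTHFD2* (-1.52) fell as well.

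Mitotic genes had the lowest median of the 32 lists. All 28 genes of the cyclins A and B, CDK1 and mitotic entry fell, with a median of -3.14 and a range from -3.81 for the cytokinesis protein *ANLN* to -1.25 for *CKS2*. *CCNA2* went from 6010.1 to 480.4, *CCNB1* from 3489 to 449, *CDK1* from 3692 to 401 and *PLK1* from 7045 to 801. Of 32 genes of the kinetochore and the spindle checkpoint, 28 fell (median -2.82). The lowest were *SPC24* (-4.12) and *NUF2* (-3.94) of the NDC80 complex and the centromeric histone *CENPA* (-3.86). Of 20 kinesin motors, 14 fell (median -2.58). Those that move chromosomes and spindles, such as *KIF2C* (-3.87) and *KIF20A* (-3.36), were among them, whereas the cargo motor *KIF3A* was at 0.45. Of the 17 genes of the condensins and cohesins with *TOP2A* and *MKI67*, 15 fell, and *TOP2A* went from 19416 to 1885 and *MKI67* from 13132 to 1719.5. *TOP2B*, the form of topoisomerase II used outside division, was listed at 43831 and 36928.

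**Figure D2:**
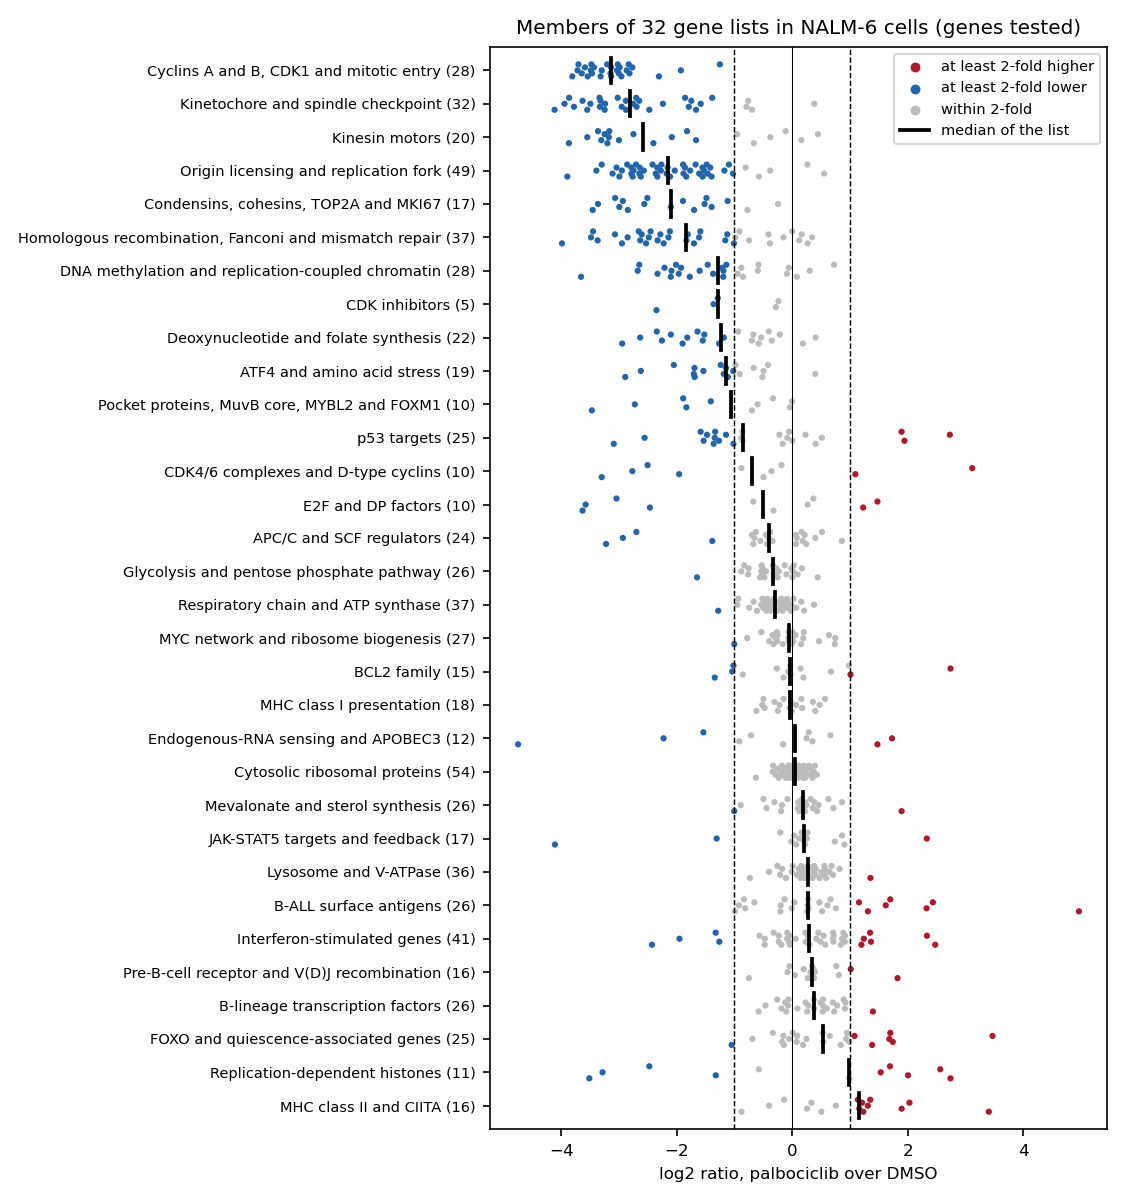
Each point is a gene of 1 of 32 lists, placed by its log2 ratio of palbociclib over DMSO in NALM-6 cells, with the number of genes tested in brackets; black bars are list medians and dashed lines mark 2-fold. All 28 genes of mitotic entry lie below the lower line, the 54 ribosomal protein genes lie between the lines, and 9 of the 16 genes of MHC class II lie above the upper line.

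The anaphase-promoting complex differed from its regulators. Of 24 genes of this complex and of SCF, 4 fell, namely the activator *CDC20* (-3.22), the ubiquitin-conjugating enzymes *UBE2C* (-2.93) and *UBE2S* (-1.38) and the inhibitor *FBXO5* (-2.70). The core subunits stayed within 2-fold, *ANAPC2* being highest at 0.86, and *FZR1*, the activator that works in G1 phase, was at 1623 and 1219.

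Repair and chromatin genes coupled to replication fell alongside. Of 37 genes of homologous recombination, the Fanconi pathway and mismatch repair, 26 fell (median -1.83). *BRCA1* went from 1938 to 335 (-2.53), whereas the damage kinase *ATM* was at 1162 and 1476. Of 28 genes of DNA methylation and replication-coupled chromatin, 18 fell (median -1.29). *HMGB2* fell 12.6-fold, from 24391 to 1934, and its relative *HMGB1* from 35989.6 to 10524. The maintenance methyltransferase *DNMT1* (-1.60), *UHRF1* (-2.33), lamin B1 (*LMNB1*, -2.68) and the Polycomb enzyme *EZH2* (-1.14) fell, while *EZH1*, the enzyme of resting cells, was at 908 and 872.

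Histone genes went in both directions. The libraries were made with oligo-dT, which misses most mRNA of the replication-dependent histones because it ends in a stem-loop and not in poly(A), and 9 of the 30 histone genes in the table passed the level filter. *HIST1H4C* fell from 41.9 to 3.67, *HIST1H1B* from 21.7 to 2.23 and *HIST2H2AC* from 20.2 to 3.64. In the other direction *HIST1H2AC* rose from 14.7 to 98.0, *HIST2H2BE* from 61.1 to 361, *HIST1H2BK* from 184 to 740.4 and the linker histone *HIST1H1C* from 88.1 to 255. *SLBP*, which binds the stem-loop, fell from 5693 to 2273. Of the 9 histone genes tested, 5 rose and 3 fell.

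The promoter words differed in frequency along this order of genes. A RefSeq promoter was matched for 9598 of the 11618 genes tested, among them 752 of the 940 that fell. An E2F word lay in the 250 bases before the start of 8.91% of the genes that fell, 4.42% of the genes within 2-fold and 2.40% of the genes that rose, beside 2.79% of all 27305 promoters of the table. A CHR word lay in 18.5%, 8.77% and 10.8%, beside 14.6% of all promoters. Among the 86 promoters of genes with a log2 ratio below -3 the share with a CHR word was 40.7%, and that with an E2F word 10.5%. A FOXO word (GTAAACA) was in 1.73% of the promoters of genes that fell and 2.52% of those of genes that rose, and an E-box (CACGTG) in 9.04% and 6.97%. The words also lay nearer to the start in genes that fell, with a median of 46 bases for the E2F word against 130 in genes within 2-fold, and 115 against 163 for the CHR word. In the 100 bases before the start, a CHR word was in 8.38% of the genes that fell and 2.07% of the genes within 2-fold, and an E2F word in 5.98% and 1.60%.

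**Figure D3:**
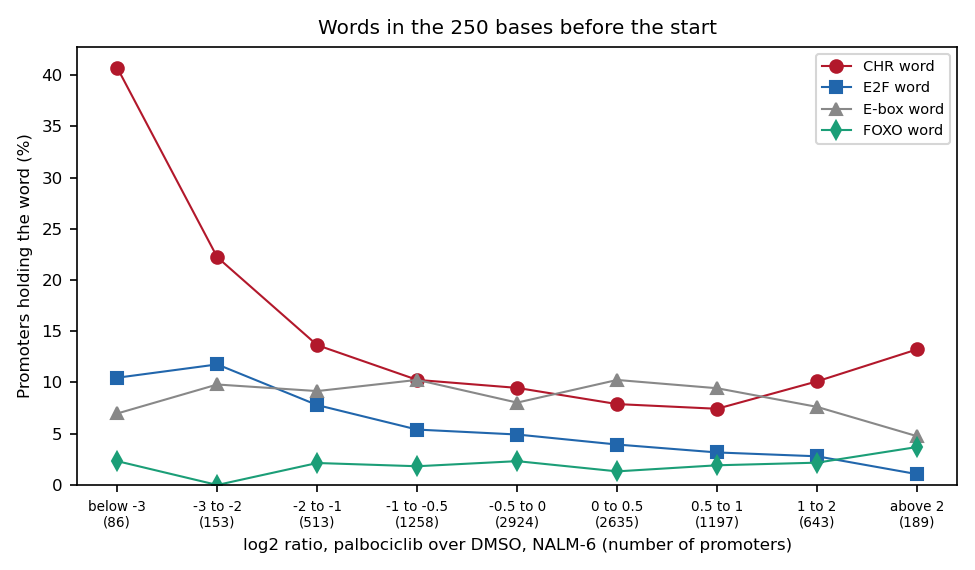
Share of promoters (y axis, percent) that hold each word in the 250 bases before the start, for genes binned by their log2 ratio of palbociclib over DMSO in NALM-6 cells (x axis, with the number of promoters). The CHR share is 40.7% below a ratio of -3, 7.44% between 0.5 and 1, 10.1% between 1 and 2 and 13.2% above 2. The E-box share stays between 4.76% and 10.3%.

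The E2F and CHR words differed in frequency between gene groups. Of 44 promoters of origin licensing and fork genes, 12 held an E2F word and 1 a CHR word. Of 22 promoters of the mitotic entry genes, 1 held an E2F word and 14 a CHR word. Kinesins (7 of 18 promoters) and condensins with *TOP2A* and *MKI67* (6 of 14) held CHR words more often than E2F words (1 and 1), and of 8 promoters of E2F and DP factors 4 held an E2F word. Other groups did not follow this division. Of 26 promoters of kinetochore genes 3 held an E2F word and 6 a CHR word, of 18 of deoxynucleotide and folate synthesis 1 and 3, and of 13 of MHC class II, a group that rose, none and 5. These words are short, and a match describes the letters only.

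Many targets of the tumor suppressor p53 fell. Of 25 tested, 11 fell (10 at equal totals) and 3 rose, with a median of -0.86. Of all genes tested, 8.09% fell and 9.39% rose. *DDB2*, a damage recognition factor, went from 2695 to 316 (-3.09), the death receptor *FAS* from 303 to 51.5 (-2.56), *CCNG1* from 8757 to 3149.5 (-1.48), *PHLDA3* from 106 to 35.5 (-1.59), the polymerase *POLH* from 2950.2 to 1019 (-1.53) and *FDXR* from 538 to 213 (-1.33), besides *CDKN1A* above. The pro-apoptotic members *BBC3* (PUMA, from 320.2 to 126) and *BAX* (from 906 to 447) fell too, the latter to -1.02, just past 2-fold, and to -0.89 if both columns are set to the same total. *MDM2*, the p53 ubiquitin ligase and a classical target, stayed at 5572 and 4774 (-0.22). The 3 that rose were *BTG2*, an antiproliferative factor (from 1791 to 11875, 2.73), *TP53INP1* (from 605 to 2249.7, 1.89) and *TP53I3* (from 63.9 to 246, 1.94).

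In the other comparisons the list held fewer falls. In RS4;11 3 of 25 fell and 4 rose (median -0.01), beside 8% of all genes lower and 6.73% higher. In BV-173 2 of 23 fell and 6 rose (median -0.06), beside 6.09% and 5.21%. With *CCND3* shRNA in NALM-6 none of 25 passed 2-fold (median 0.08), beside 3.91% and 2.62%. The scrambled control of NALM-6 was past the midpoint towards palbociclib for *CCNG1* (4029), *BBC3* (175), *BAX* (619.8) and *FDXR* (314). *FAS* was at -0.56 in RS4;11, -0.87 in BV-173 and -0.07 with the shRNA, and *CCNG1* at -0.53, -0.21 and -0.04. *BTG2* rose with palbociclib in all 3 lines (2.22 in RS4;11 and 2.17 in BV-173) and was at 0.15 with the shRNA.

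Genes of quiescence and FOXO factors were mixed. Of 25, 6 rose and 1 fell (median 0.53), beside 9.39% of all genes tested that rose and 8.09% that fell. *MXD4*, a partner of MAX that opposes MYC, rose 11.1-fold, from 291 to 3218, and it rose in each of the other comparisons too (2.17 in RS4;11, 1.47 in BV-173 and 1.47 with the shRNA). *SESN3* (from 575 to 1924), *YPEL5* (from 839 to 2189) and the trafficking genes *KLF2* (from 50.1 to 163) and its target *S1PR1* (from 116 to 373) rose. *KLF2* and *S1PR1* rose with the *CCND3* shRNA as well (1.71 and 1.64), but not in RS4;11 (-0.72 and 0.58). In BV-173 *KLF2* was at 0.60, and *S1PR1* had a level under 10. *FOXO1* itself was at 4903 and 4341, and the FOXO targets *CCNG2* (0.08) and *BTG1* (0.25) stayed within 2-fold. *MXD3*, the relative of *MXD4* made in S phase, was the one that fell (-1.05), and was at -0.92 at equal totals, and its scrambled level was 1015. Equal totals put 9 genes of the list higher and none lower.

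Growth genes mostly stayed within 2-fold while the cycle genes fell. *MYC* was listed at 20311 in DMSO and 21147 with palbociclib (0.06). Of 27 genes of the MYC network and ribosome biogenesis 26 stayed within 2-fold, the exception being the nucleolar methyltransferase *FBL*, which went from 8177 to 4077, on the edge of 2-fold and within it (-0.88) at equal totals. All 54 cytosolic ribosomal protein genes stayed within 2-fold, from -0.63 for *RPSA* to 0.43 for *RPS28*, with a median of 0.05. Their medians were 0.53 in RS4;11, 0.55 in BV-173 and 0.33 with the *CCND3* shRNA.

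**Figure D4:**
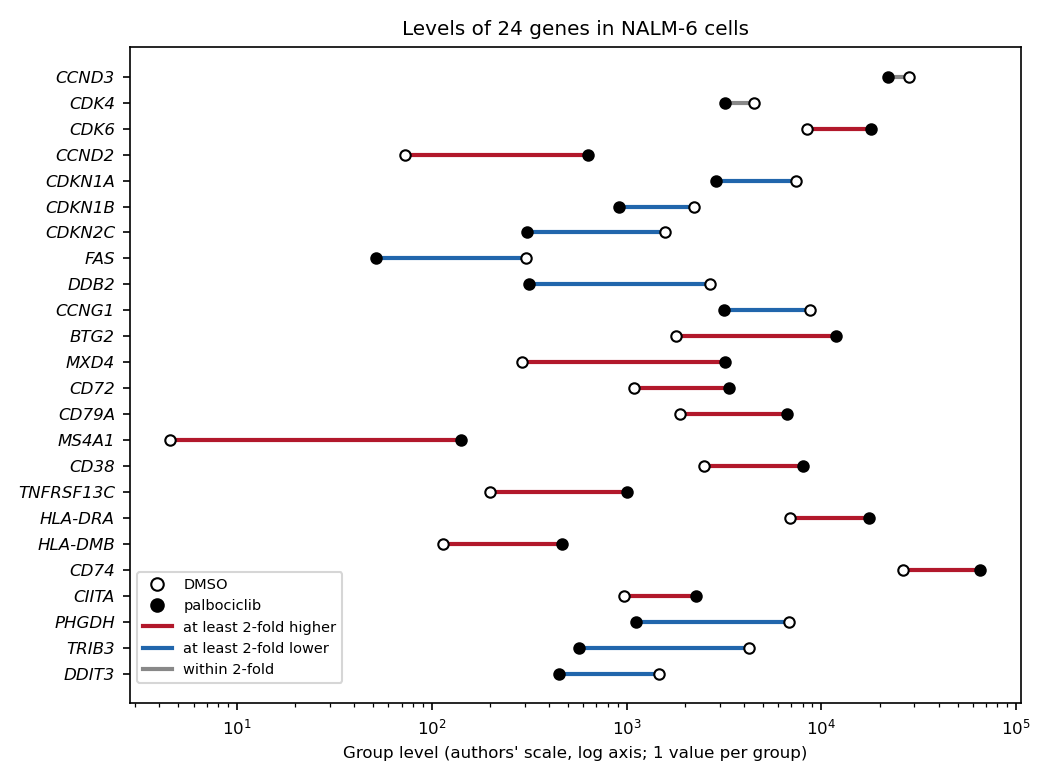
Levels of 24 genes in NALM-6 cells (x axis, log scale, the authors' units), with open circles for DMSO and filled circles for palbociclib, 1 value per group; red lines join pairs at least 2-fold higher with palbociclib and blue lines those at least 2-fold lower. *MS4A1* spans from 4.54 to 142, while *CCND3* and *CDK4* are the 2 pairs within 2-fold.

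Genes of the amino acid stress response directed by ATF4 fell. Of 19, 12 fell (10 at equal totals) and none rose (median -1.15), beside 8.09% of all genes tested that fell. *TRIB3* went from 4242 to 572 (-2.89), the serine synthesis enzyme *PHGDH* from 6843 to 1112 (-2.62), the cystine transporter subunit *SLC7A11* from 416 to 100.4, *DDIT3* (CHOP) from 1465 to 449.8 and *ATF5* from 26755 to 8274. *ATF4* itself was at 13924 and 6863 (-1.02), past 2-fold here and at -0.89 with equal totals. The list was lower in the other lines too, with 16 of 19 genes in RS4;11 (median -1.35) and 12 of 18 in BV-173 (median -1.79). The *CCND3* shRNA gave 4 of 19 (median -0.56). Lower calls over all genes were 8% in RS4;11, 6.09% in BV-173 and 3.91% with the shRNA. Asparagine synthetase, *ASNS*, was the gene on which the lines parted, at -1.54 in NALM-6, -2.50 in BV-173 and 1.12 in RS4;11.

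MHC class II genes rose. These genes encode the molecules that show peptides to CD4+ T cells, and their master regulator is CIITA. Of 16 tested, 9 rose and none fell, with a median of 1.15, beside 9.39% of all genes tested that rose. *CIITA* went from 971 to 2281 (1.23), *HLA-DRA* from 6873 to 17536 (1.35), the invariant chain *CD74* from 26305 to 65211 (1.31), the peptide exchangers *HLA-DMA* from 374 to 1392 (1.89) and *HLA-DMB* from 114 to 467 (2.03), and *HLA-DQA1* by 3.40 from a DMSO level of 10.4. HLA genes are close relatives and may share reads, so the split between them is uncertain. The lowest of the list was *RFXAP*, at 524 and 286 (-0.88). In the scrambled control *CIITA* was at 1372, *HLA-DRA* at 9381 and *HLA-DQA1* at 36.1, and the median of the list against DMSO was 0.42. The list was higher in RS4;11 (11 of 15 rose, median 1.30) and BV-173 (10 of 16, median 1.21), beside 6.73% and 5.21% of all genes. With the *CCND3* shRNA none of 16 passed 2-fold, beside 6.53% of all genes. The median was -0.41, with *CIITA* at -0.99 and *HLA-DRA* at -0.49. By contrast, none of 18 genes of MHC class I presentation passed 2-fold in NALM-6 cells (median -0.03), and *B2M* (32179 and 23093) was at -0.48.

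Among 26 surface antigens of B-ALL tested, 7 rose and none fell (median 0.28), beside 9.39% of all genes tested that rose and 8.09% that fell. In the scrambled control the median of the list against DMSO was 0.27, near that with palbociclib. In RS4;11 10 of 27 rose and 2 fell, beside 6.73% of all genes higher and 8% lower. In BV-173 8 of 26 rose and 2 fell, beside 5.21% and 6.09%. With the *CCND3* shRNA 5 of 27 rose and 1 fell, beside 2.62% and 3.91%. *MS4A1* (chr11:60455847-60470752), which codes for CD20, an antigen of more mature B cells, was nearly silent in DMSO and rose from 4.54 to 142 (4.97). It rose in RS4;11 (1.52) and BV-173 (2.89) and was at 0.74 with the shRNA. In NALM-6 cells with scrambled shRNA its level was 148, above that with palbociclib, so the low level was not shared by both controls. The BAFF receptor *TNFRSF13C*, another gene of maturing B cells, rose from 200.1 to 1004 (2.33), *CD38* from 2487 to 8070.2 and *CD72* from 1094 to 3363. *CD34*, an antigen of less mature cells, also rose, from 36.0 to 195 (2.44), and rose with the *CCND3* shRNA (2.24), whereas its levels in RS4;11 and BV-173 were under 10. *CD22* was at 2074 and 1179.8 (-0.81), and rose with the shRNA (1.24). *MME* (CD10), *IL7R* and *CD24* stayed within 2-fold (0.47, -0.01 and 0.04).

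The genes of the pre-B-cell receptor and of V(D)J recombination mostly stayed within 2-fold. Of 16, 2 rose and none fell (median 0.35), beside 9.39% of all genes tested that rose and 8.09% that fell. The signalling chain *CD79A* rose from 1870.5 to 6621 (1.82) and the kinase *SYK* from 3797 to 7665 (1.01), whereas the other chain, *CD79B*, was at 7098 and 9187. In the scrambled control *CD79A* was at 6295, near its level with palbociclib, and *SYK* at 5547. The recombinase genes *RAG1* (25143 and 30303) and *RAG2* (2396 and 4067) were within 2-fold in NALM-6 and RS4;11 cells, and fell in BV-173 (-1.93 and -1.38). The surrogate light chain genes *VPREB1* (0.32) and *IGLL1* (-0.75) stayed within 2-fold. Of 26 transcription factors of the B lineage *MEF2C* rose, from 2193 to 5780.0 (1.40), and the others stayed within 2-fold, while at equal totals 4 are higher, with *IRF8* (1.02), *POU2F2* (1.04) and *ID2* (1.05) besides *MEF2C*. The scrambled level of *MEF2C* was 5109. *PAX5* (-0.12), *EBF1* (-0.07) and *TCF3* (-0.19), which set B-cell identity, were close to 0.

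The STAT5 targets and the BCL2 family each held a few large changes in lists that otherwise stayed within 2-fold. *PIM1*, a survival kinase, fell 17.3-fold, from 907 to 52.5. In RS4;11 its log2 ratio was -4.97, in BV-173 -0.20 and with the shRNA -1.27. The other STAT5 targets did not follow, with *CISH* at 0.07 and *SOCS2* at 0.20. Among 15 BCL2 family genes the pro-apoptotic *BMF* rose from 51.3 to 343 (2.74) and *BIK* rose by 1.01, *BBC3*, *BAX* and the anti-apoptotic *BCL2L2* (-1.04, -0.91 at equal totals) fell, and *BCL2* (-0.15), *MCL1* (0.15) and *BCL2L11* (-0.03) stayed within 2-fold. *BMF* rose in RS4;11 too (2.05) but was at 0.29 in BV-173 and -0.05 with the shRNA. Its level in the scrambled control of NALM-6 was 394, above that with palbociclib, and that of *BIK* was 266, beside 168 in DMSO and 337 with palbociclib. Of the 15 genes of this family 2 were higher and 3 lower, beside 9.39% and 8.09% of all genes tested. At equal totals 3 are higher and 1 lower.

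Over all genes with a mean level of at least 100, the 15 highest log2 ratios were those of *ADGRE2* (from 9.60 to 349, 5.19), an adhesion receptor, *EFEMP1* (from 20.6 to 687, 5.06), a matrix protein, *PHLDA1* (3.73), *TMEM150A* (3.71), *SCML4* (3.49), *MXD4*, *AHNAK2* (3.33), *UMODL1* (3.33), *CSMD1* (3.27), *TARSL2* (3.16), *CCND2*, *PRDM11* (2.94), the DNA glycosylase *NEIL1* (2.93), *ZSWIM5* (2.91) and the lysosomal enzyme *IDUA* (2.90). The highest DMSO level among them was the 291 of *MXD4*. Each of these genes was also higher in the scrambled control, without the drug, than in DMSO. The scrambled level passed the midpoint on the log scale for *CCND2* and *NEIL1* only, and lay just short of it for *CSMD1* and *PRDM11*. It was 45.9 for *ADGRE2* and 71.7, beside 28.2 in DMSO, for *ZSWIM5*. Smaller gaps were those of *SCML4* (62.1 in DMSO and 76.1 scrambled) and *MXD4* (357 scrambled). The 15 lowest were mostly genes of division. *FAM72D* (-5.01), *FAM72C* (-4.47) and *FAM72B* (-4.18) are near-identical copies whose reads cannot be told apart with certainty. *APOBEC3B*, a cytidine deaminase, went from 687 to 25.6 (-4.75), the glycosylase *NEIL3* from 478 to 20.2 (-4.56), the formin *DIAPH3* from 704 to 35.8 (-4.30) and the mitotic kinase *PBK* from 1573 to 87.0 (-4.18). Others were *ASS1*, *SPC24*, *PIM1*, *NUF2*, *CDT1*, *KIF2C* and *CENPA*. *NEIL1* went from 38.2 in DMSO to 292 with palbociclib, and its scrambled level was 193.

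A larger share of the falls than of the rises of NALM-6 cells was also seen in the other lines. With 1 value per group, no difference between lines could be tested. Across genes tested in both tables the log2 ratios of NALM-6 and RS4;11 had a Pearson r of 0.752 (Spearman rho 0.663, 11021 genes), and those of NALM-6 and BV-173 an r of 0.661 (rho 0.575, 10708 genes). These correlations are across genes, which are not independent, and each table was normalised on its own. Background shares of lower calls were 8% in RS4;11 and 6.09% in BV-173, and of higher calls 6.73% and 5.21%. Of 831 genes that fell in NALM-6 and were tested in all 3 lines, 400 (48.1%) fell in all 3 and 214 (25.8%) fell in neither other line. Of 756 that rose, 132 (17.5%) rose in all 3 and 421 (55.7%) in neither other line. Over all calls in NALM-6, the rises had a median mean level of 94.5 against 705 for the falls. The scrambled control was past the midpoint for 37.9% of the rises and 7.13% of the falls. What level and control contribute to the shared calls was not tested. The medians of the lists of mitosis and of the replication fork lay between those of the other lines. The median of the mitotic entry genes, -3.14 in NALM-6, was -5.01 in RS4;11 and -1.74 in BV-173. For origin licensing and fork genes the medians were -2.16, -2.84 and -1.34 in the same order. Other lists of the cycle had another order. The median of deoxynucleotide and folate synthesis was -1.22, -1.19 and -0.77 in the same order of lines, that of the pocket protein and MuvB list -1.05, -0.88 and -0.98, and that of the CDK inhibitors -1.29, -0.01 and -0.71. *MKI67* differed more, at -2.93, -7.16 and -2.55.

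**Figure D5:**
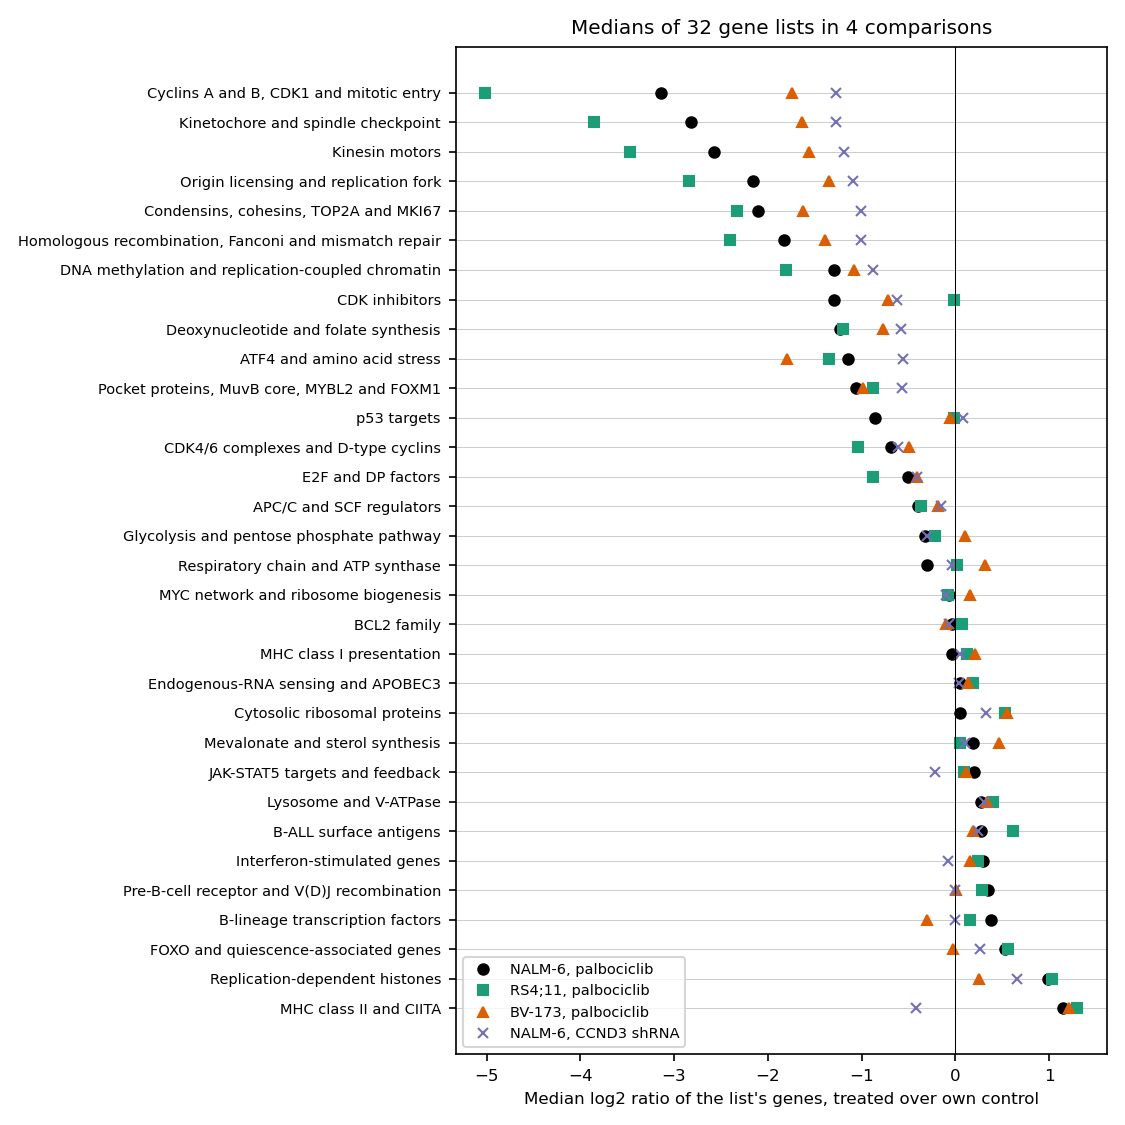
Median log2 ratio (x axis) of the genes of each of 32 lists in 4 comparisons, each against its own control: palbociclib in NALM-6 (black circles), RS4;11 (green squares) and BV-173 (orange triangles), and *CCND3* shRNA in NALM-6 (purple crosses). For mitotic entry the medians are -3.14, -5.01, -1.74 and -1.27, and for MHC class II the cross, at -0.41, lies apart from the palbociclib points between 1.15 and 1.30.

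The genes that follow were picked because their ratio in NALM-6 lay furthest from that of both other lines, so the gap itself is a description. Among genes with a mean level of at least 100 in the 3 palbociclib tables, the one furthest above both other lines was *TSC22D3*, a glucocorticoid-induced gene, which rose from 477 to 1411 (1.57) while its log2 ratio was -0.98 in RS4;11 and -1.69 in BV-173. In the scrambled control of NALM-6 it was at 1418. The calcium pump *ATP2A3* rose from 2825 to 14953 (2.40) beside -0.13 and 0.05, and the Wnt pathway ligase *RNF43* from 149.8 to 849 (2.50) beside 0.73 and 0.16. The other 7 were *ADGRE2*, *PDE3B*, *STMN3*, *HGSNAT*, *BIN1*, *SH3PXD2A* and *PTPRK*, with log2 ratios in NALM-6 from 1.98 to 5.19. Among these, the scrambled level lay past the midpoint for *PDE3B* (114 in DMSO, 478 with palbociclib and 314 scrambled), *STMN3* (40.7, 164 and 87.1) and *SH3PXD2A* (85.8, 352 and 279). Furthest below both was the integrin *ITGB2*, which fell from 1088 to 366 (-1.57) while it was at 1.05 in RS4;11 and 1.00 in BV-173. *ASS1*, the enzyme that makes argininosuccinate on the way to arginine, fell 18.3-fold, from 5469 to 299 (-4.19), beside -1.07 and -1.86. *MRC2* (-2.62), *SLCO4A1* (-2.57), *LITAF* (-2.42), *TSPO* (-1.20) and the Polycomb protein *PHF19* (-2.53) fell, and *SRGN* (-0.96), *CD52* (-0.84) and *CD48* (-0.71) stayed within 2-fold and had the opposite sign in the other lines.

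The *CCND3* shRNA moved fewer genes of the same line. It called 766 of 11726 genes (6.53%), 307 higher (2.62%) and 459 lower (3.91%). Across 11519 genes its log2 ratios and those of palbociclib had an r of 0.672 (rho 0.614). Of 446 genes lower with the shRNA and tested in both tables, 336 (75.3%) were lower with palbociclib, which are 36.1% of the 932 lower with palbociclib. The median of the mitotic entry genes was -1.27 with the shRNA against -3.14 with palbociclib. The target gene, *CCND3*, was at -2.04 with the shRNA and at -0.36 with palbociclib. Day and handling differed, since shRNA cells were collected on day 4 after transduction and sorted. The genes furthest above the shRNA were the tetraspanin *CD82* (2.61 against -0.66), the adhesion molecule *CNTN2* (2.83 against -0.40), *ELFN2* (0.80 against -2.36), *CXorf21* (2.80 against -0.34) and *CCND2* (3.12 against 0.03). All 5 were higher in the scrambled control than in DMSO, at 421 against 129 for *CD82*, 140.2 against 43.1 for *CNTN2*, 332 against 88.8 for *ELFN2*, 204 against 50.9 for *CXorf21* and 264 against 72.9 for *CCND2*, so the controls of these genes differed too. Furthest below were *ASS1* (-4.19 against -0.48), *APOBEC3B* (-4.75 against -1.12), *FAM72D*, *SPC24* and *FAM72C*. *CDK8*, the Mediator kinase on which the study followed up, was at 1091 in DMSO and 766 with palbociclib (-0.51) and at -1.06 with the shRNA, and its paralog *CDK19*, with which it may share reads, was at 598 and 757 (0.34) and at -0.88 with the shRNA.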

How the data were processed

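RNA of 3 samples of NALM-6 cells treated with palbociclib and 3 given DMSO was sequenced by the authors after oligo-dT enrichment. Per the labels, processing used Bowtie2, RSEM and DESeq2 with the build hg38; versions are not given in the sources used here. The authors' deposited table of each comparison holds a signal per group (a level on the scale of counts, normalised within that table), gene length, and the authors' own log2 fold changes and p-values, which were not used. Out of 6 deposited comparisons, 4 were used. No values per sample were analysed here, so depth and replicate error are not known and no test was made.

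Log2 ratios were computed from the 2 group levels without a pseudocount, for genes with a mean level of at least 10, and called at 2-fold. Among the 3010 genes below a level of 3 the SD of the log2 ratio was 0.61, against 1.15 for levels from 3 to 10, so ratios near the floor of the table are compressed. Positions are those of RefSeq GRCh38.p14, matched by NCBI gene identifier for 15586 of 15614 genes. Promoters were matched by gene identifier, using the first listed start of a gene and the 250 bases before it. The 32 gene lists (802 different genes, of which 792 were listed and 757 tested), the markers and the rule for named genes were chosen with earlier results of these data known. The rule names core members and the extremes of each list, the 15 highest and 15 lowest ratios at a mean level of at least 100, the 10 genes furthest above and below both other lines, the 5 furthest from the shRNA on each side, *CDK8* and *CDK19*. Lists are described by counts and medians. A few genes that the rule names are not reported here. Alternatives were fold thresholds of 1.5 and 4, pseudocounts of 1 and 10, no filter or a mean level of 100, centred or equal-total scaling, rank correlation and a promoter window of 100 bases. Calling was run on simulated counts with planted changes past 2-fold and Poisson noise as the only spread between samples. That run checks the calculation and does not tell how many calls in the real data are false. Work was done in Python 3.11.15 with pandas 2.3.3, numpy 2.4.6, matplotlib 3.10.9 and scipy 1.17.1.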

Additional observations from a re-analysis of the deposited data

How the results depend on the processing

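The counts of calls followed the thresholds. At 1.5-fold 4232 genes passed (2185 higher, 2047 lower), and at 4-fold 552 (251 higher, 301 lower). Without the filter on low values 1783 genes were higher, and with a mean level of at least 100 there were 1319 calls with 533 higher (40.4% of calls). Pseudocounts of 1 and 10 gave 1983 and 1700 calls, centring on the median gave 2047, and equal totals 2126. Shared calls in all 3 lines at 1.5-fold were 786 lower and 468 higher. Without the filter the correlation with RS4;11 was 0.639, and it was 0.804 at a mean level of at least 100. For the 222 single genes examined, these scalings, filters and pseudocounts could not reverse a ratio past 2-fold. Only crossings of the 2-fold line are therefore described. Equal totals moved 7 across the 2-fold line, namely *ATF4* (-0.89), *BAX* (-0.89) and *FBL* (-0.88) out and *DUSP6* (1.03), *IFIT1* (1.04), *IRF8* (1.02) and *TXNIP* (1.08) in. The median of the pocket protein and MuvB list went from -1.05 to -0.93 at equal totals and that of the histone list, which also holds *SLBP* and *NPAT*, from 0.99 to 1.11. No paired analysis was possible because the tables hold 1 value per group, and for the same reason leaving out samples was not run.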

Other observations

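Several further gene groups were measured in NALM-6 cells. Of 41 interferon-stimulated genes tested, 6 rose and 4 fell (median 0.30), beside 9.39% of all genes higher and 8.09% lower, and 9 are higher at equal totals. The median of this list in the scrambled control against DMSO was 0.26. *CMPK2* rose from 12.6 to 70.3 (2.48), *HERC6* from 32.1 to 162 (2.33), *MX1* from 71.7 to 185 (1.36) and *MX2* from 86.7 to 221 (1.35), with *MX1* at 205, *MX2* at 219 and *CMPK2* at 50.1 in the scrambled control, while *HERC5*, the neighbour and relative of *HERC6*, fell from 2649.7 to 492 (-2.43) and *IFITM1* from 51.9 to 13.4 (-1.95). *ISG15* was at 0.27. The fall of *HERC5* was also seen in RS4;11 (-2.12), BV-173 (-1.81) and with the *CCND3* shRNA (-1.10). Of 12 genes of nucleic acid sensing and the APOBEC3 family, *APOBEC3B*, *APOBEC3H* (-2.23) and *CGAS* (-1.54) fell, the endosomal receptors *TLR7* (from 13.5 to 37.7) and *TLR9* (from 52.6 to 174, scrambled 203) rose, and *APOBEC3G* was at 0.29.

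Metabolic groups mostly stayed within 2-fold. Of 37 respiratory chain and ATP synthase genes 1 fell, *COX8A* (-1.28), and 32 had a ratio below 0 (median -0.31), beside medians of 0.02 in RS4;11 and 0.32 in BV-173. In the scrambled control of NALM-6, without the drug, the median of the list against DMSO was -0.33. Equal totals raise the NALM-6 median by the shift of 0.13 given above. Of 26 genes of glycolysis and the pentose phosphate pathway 1 fell, the neuronal enolase *ENO2* (from 308 to 98.3), with a median of -0.32 and *TKT* at -0.83. Of 36 lysosomal and V-ATPase genes 1 rose, the sialidase *NEU1* (from 411 to 1052), and 29 had a ratio above 0 (median 0.28). Of 26 genes of sterol synthesis and uptake *EBP* fell from 1171 to 584, on the edge of 2-fold, and *TM7SF2* rose (1.89, with 1.39 in RS4;11 and 1.48 with the shRNA). Of 17 STAT5 targets and feedback genes, *DUSP5* rose (2.33, from 12.5 to 62.8, scrambled 57.3) and *PIM1* and *SPRED2* (-1.31) fell.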
